A study of Mus musculus with 32 samples.

Results

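The genes described here code for the nuclear-encoded subunits of the mitochondrial respiratory chain and of ATP synthase. They were chosen by name, as the array rows whose symbol begins with Nduf, Uqcr, Atp5 or Cox4 to Cox8, or is one of Sdha, Sdhb, Sdhc and Sdhd, which found 73 of 18118 genes, read by 88 probes. Of the 73, 30 were assigned to complex I, 3 to complex II, 6 to complex III, 16 to complex IV and 15 to complex V. The other 3 share the prefix but code for no subunit: the complex I assembly factor Ndufaf1, the supercomplex factor Cox7a2l, and Dmac2l, listed on the array as Atp5s. Ndufa4, named for complex I, was counted with complex IV, where its protein is found.

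Messenger RNA was measured on Illumina bead arrays in the right striatum and the right cortex of male wild-type C57BL/6J mice aged 8 to 10 weeks. The middle cerebral artery was blocked with a suture for 2 h and then reopened (ischaemia and reperfusion, I/R), and tissue was taken 2 h, 8 h or 24 h after reopening. Each tissue has 4 groups, I/R of 2 h, 8 h and 24 h and a sham group, with 4 arrays in each. Sham mice received anaesthesia and a neck incision with no suture, and no source used here gives the time at which they were killed. Nothing in the labels says which arrays share a mouse, so p-values measure only the spread between arrays.

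The respiratory chain passes electrons from NADH through complex I, and from succinate through complex II, to coenzyme Q, then through complex III and cytochrome c to complex IV, which reduces oxygen. Complexes I, III and IV pump protons across the inner mitochondrial membrane, and complex V, ATP synthase, uses their return to make ATP. Neurons draw most of their ATP from this chain, which stalls when blood flow stops and restarts, with a burst of reactive oxygen species, when flow returns. A small set of subunits is encoded by mitochondrial DNA, and those are not in the list.

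Median probe signals ran from 57.2 to 103.7 intensity units on striatum arrays and from 70.0 to 88.7 on cortex arrays, and precision is limited by the 4 arrays in each group. Within each tissue the slide position went with the group, A or E for sham, F for 2 h, G for 8 h and H for 24 h, so position and group cannot be told apart. The tissue labels were checked in sham mice: 5 of 6 tested markers of cortical excitatory neurons were lower in striatum, whereas 0 of 7 markers of striatal projection neurons differed (median log2 difference 0.33). In bulk tissue, fewer cells of a type and less RNA per cell cannot be told apart.

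One array stood apart for these genes. On striatum 2 h replicate 4 the median gene lay -0.31 from its sham mean on the log2 scale, and 54 of 67 genes lay below it, while the other 3 arrays of that group had medians between -0.019 and 0.014. Over complex IV alone the median on that array was -0.61. Correlations among the 4 arrays of that group over all genes were 0.989 to 0.993, within the range of the other striatum groups. The array enters every striatum fit through the shared estimate of spread, so counts are also given without it, a setting chosen after seeing the data. It was singled out because these same genes were low on it. Where it is in no group compared, leaving it out keeps the ratios and changes only the estimate of spread. A higher count is then favoured by that choice, and no share of all genes is given for this setting.

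**Figure D1:**
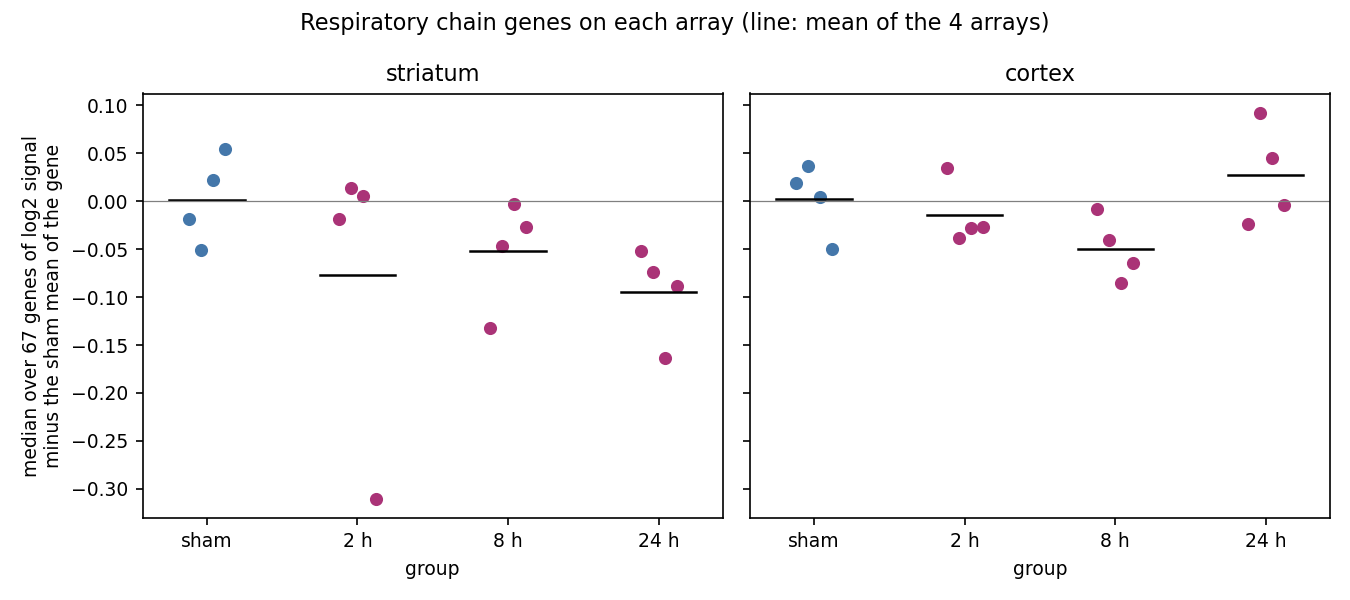
Median over the 67 tested genes of the log2 signal minus the gene's sham mean, for each array (points) of the sham, 2 h, 8 h and 24 h groups, striatum left and cortex right; lines are means of 4 arrays. A single striatum 2 h array lies at -0.31, and the 4 striatum 24 h arrays lie between -0.164 and -0.052.

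A gene was tested where some group had its probe above background (detection p under 0.05) on 4 of 4 arrays, which left 67 of the 73 genes in each tissue. These were 28 of 30 for complex I, 3 of 3 for complex II, 5 of 6 for complex III, 14 of 16 for complex IV, 14 of 15 for complex V and all 3 genes of no complex. The 6 genes left out were the same in both tissues: Ndufs1, the largest complex I core subunit, Ndufab1, the mitochondrial acyl carrier protein, Uqcrfs1, the Rieske iron-sulfur protein of complex III, Atp5k, and the restricted isoforms Cox4i2 and Cox8c. The Ndufs1 probe was detected on 0 arrays of any group, with signals of 36.3 to 51.9. Uqcrfs1 was detected on 0 or 1 array of each group, and Ndufab1 on 0 or 1. Sdha and Ndufa4l2 are not analysed here.

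**Figure D2:**
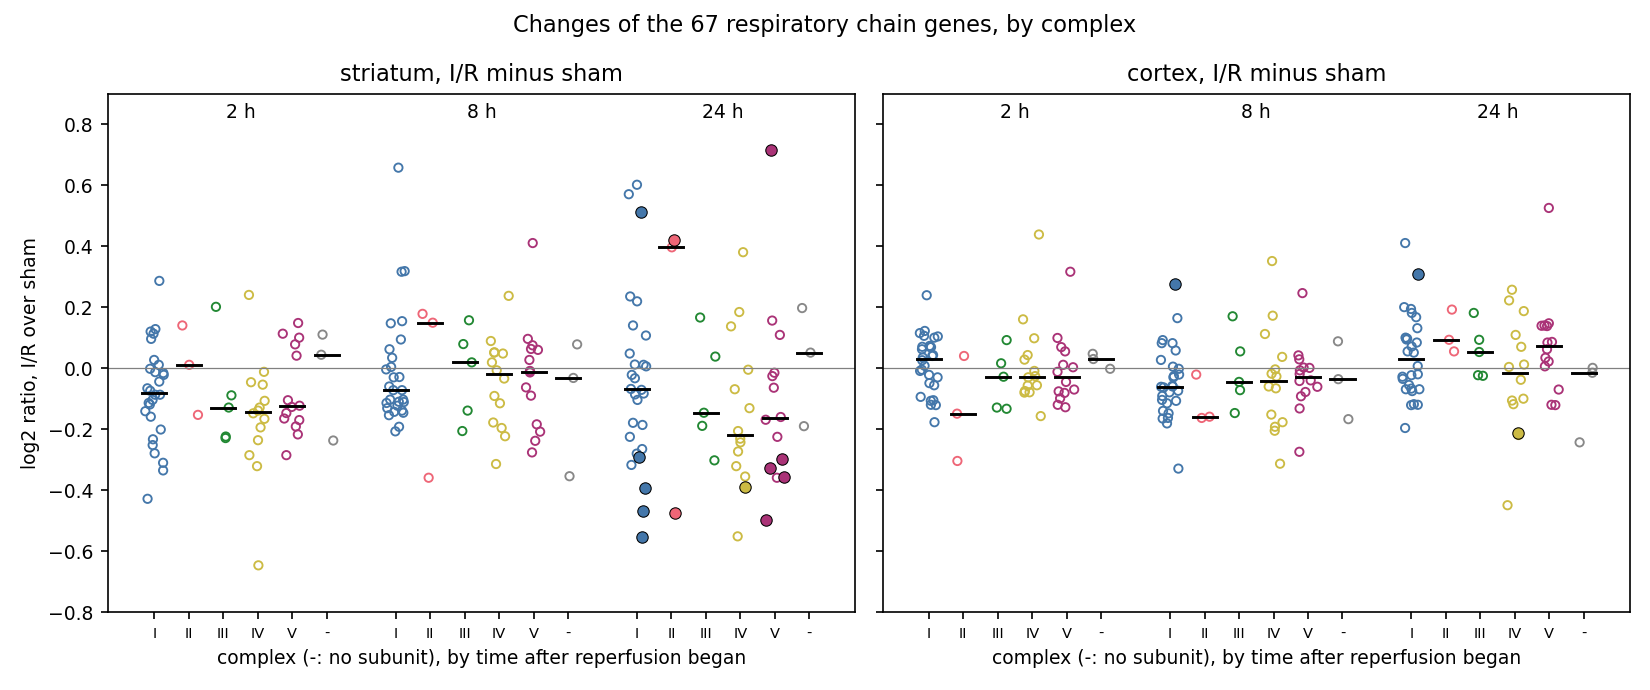
Log2 ratio of I/R over sham for each of the 67 tested genes (points) by complex and time after reperfusion began, in striatum (left) and cortex (right). Filled points passed an adjusted p of 0.05 and lines are medians; most filled points are in striatum at 24 h, 10 below 0 and 3 above.

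At 24 h in the striatum 13 of the 67 genes differed from sham, 10 lower and 3 higher, which is 19.4% of them. Of all 9984 genes tested in that comparison 17.5% were called, 8.23% lower and 9.28% higher, so the share called was near that of the array. The median log2 ratio of the 67 genes was -0.086, against -0.021 over all genes, and 44 of the 67 were negative. The lowest was -0.55 (Ndufa5) and the highest 0.71 (Atp5a1), so no gene reached a 2-fold change. In 24 of 67 genes the 4 arrays of 24 h and of sham did not overlap, against 23.2% of all genes. Without striatum 2 h replicate 4 the count was 19, 16 lower and 3 higher, with Ndufa1, Ndufs6, Uqcr11, Cox6a2, Cox7c and Atp5j2 added among the lower. That array is in neither group, so the ratios were unchanged and only the estimate of spread moved (SE of Ndufa5 0.165 with it, 0.101 without). That array was singled out because these genes were low on it, which favours a higher count, and no share of all genes is given. Without 1 array of the groups compared the count fell to as few as 4. It was 4 without striatum sham replicate 1 or striatum 24 h replicate 1, 5 without sham replicate 3 or 24 h replicate 3, and 8 without sham replicate 4 or 24 h replicate 2. Within each of the 3 slides that held both groups all 13 genes had the sign of the pooled ratio, which their choice on these arrays favours.

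Beside these changes, 4 of 7 tested macrophage markers (10 were listed) rose in striatum at 24 h, with summed log2 levels of 10.92 to 13.19 in I/R and 10.81 to 11.33 in sham. Of 8 tested neuronal markers (10 listed) 1 fell, with sums of 14.91 to 15.35 in I/R and 15.29 to 15.34 in sham, and of 7 oligodendrocyte markers (8 listed) 2 fell. The 7 tested markers of striatal projection neurons (8 listed) had a median ratio of -0.843, and 0 of them passed. Their part in the results was not tested.

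**Figure D3:**
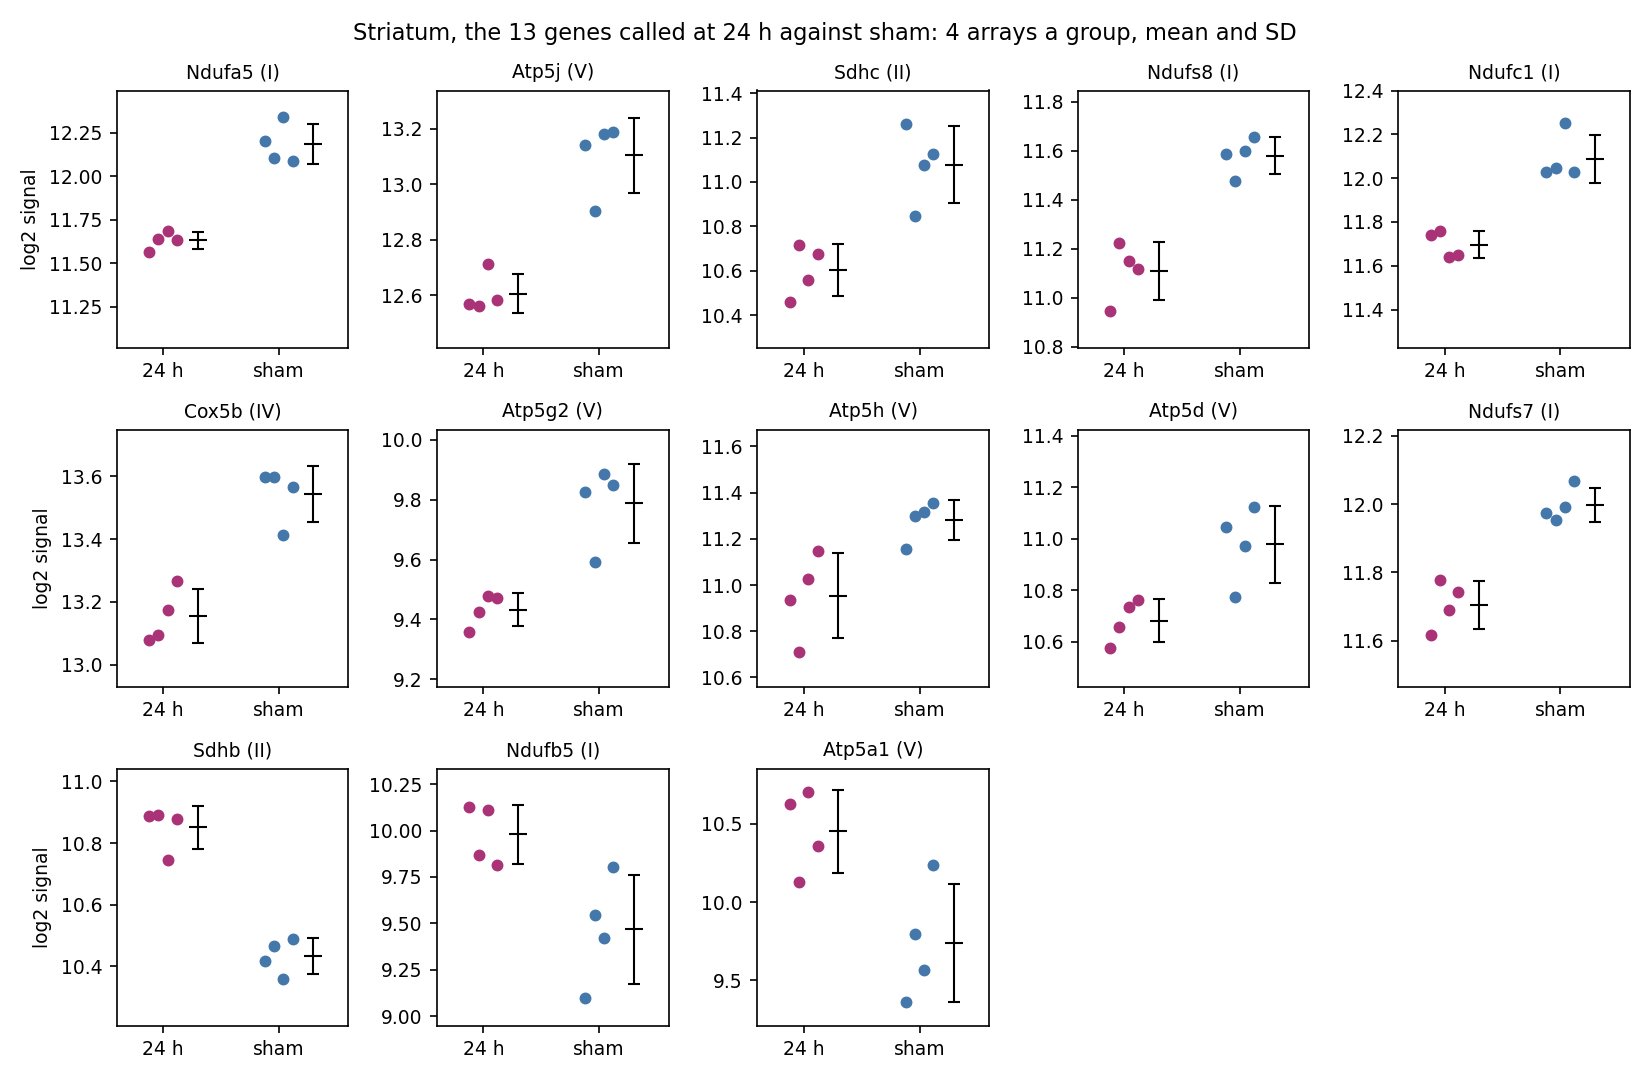
Log2 signal on each of 4 arrays at 24 h and in sham striatum, for the 13 genes called in that comparison, with mean and SD to the right of each group; complex in brackets and a separate vertical scale for each gene. The 10 genes that fell are in the upper panels and Sdhb, Ndufb5 and Atp5a1, which rose, in the lowest row; Atp5a1 alone overlaps between groups.

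Among 28 complex I genes, 4 fell and 1 rose, against 8.23% of all genes lower and 9.28% higher. No complex was tested as a set. Ndufs8 and Ndufs7, core subunits that carry iron-sulfur clusters, both fell. Ndufs8 measured 10.95, 11.22, 11.15 and 11.12 at 24 h, against 11.59, 11.48, 11.60 and 11.66 in sham. Every 24 h array thus lay below every sham array, and the log2 ratio was -0.469 ± 0.097 (SE, adjusted p = 0.00526), and the signal fell by 27.8% on the linear scale. Ndufs7 measured 11.62, 11.78, 11.69 and 11.74 at 24 h, against 11.97, 11.95, 11.99 and 12.07 in sham, again with no overlap (-0.291 ± 0.090, adjusted p = 0.0343). The accessory subunit Ndufa5 measured 11.57, 11.64, 11.68 and 11.64 at 24 h, against 12.21, 12.11, 12.34 and 12.09 in sham. Its ratio was -0.554 ± 0.17 (adjusted p = 0.0297), but a second, dimmer probe of the gene gave 0.164 ± 0.20 (adjusted p = 0.608). Ndufc1, another accessory subunit, named because it completes the count, had -0.391 ± 0.13 (adjusted p = 0.04) and -0.338 ± 0.18 on its second probe (adjusted p = 0.207). It did not pass in 13 of 19 alternatives. Ndufb5, an accessory subunit of the membrane arm, rose: 10.13, 9.87, 10.11 and 9.82 at 24 h, against 9.10, 9.55, 9.42 and 9.81 in sham (0.512 ± 0.17, adjusted p = 0.0463). The lowest 24 h array lay just above the highest sham array. Ndufv1, the subunit that binds NADH, did not pass (0.107 ± 0.097, adjusted p = 0.468).

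Complex II moved in both directions. Sdhb, its iron-sulfur subunit, measured 10.89, 10.89, 10.74 and 10.88 at 24 h, against 10.42, 10.47, 10.36 and 10.49 in sham. The groups did not overlap (0.419 ± 0.089, adjusted p = 0.00603), and its second probe also rose (0.333 ± 0.093, adjusted p = 0.0207). Sdhc, a membrane anchor of the same complex, measured 10.46, 10.72, 10.56 and 10.68 at 24 h, against 11.26, 10.85, 11.08 and 11.13 in sham (-0.474 ± 0.13, adjusted p = 0.0206). All 4 of its 24 h arrays lay below the sham arrays.

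None of the 5 complex III genes passed in this comparison, and their ratios ran from -0.302 to 0.166. The core protein Uqcrc1 had -0.189 ± 0.097 (adjusted p = 0.183). Without striatum 2 h replicate 4, a choice that favours such calls, the small subunit Uqcr11 passed (-0.302 ± 0.089, adjusted p = 0.0279). Among 14 complex IV genes, 1 fell (8.23% of all genes fell), and their median was -0.218. That gene was Cox5b, a nuclear-encoded subunit, at 13.08, 13.10, 13.17 and 13.27 at 24 h, against 13.60, 13.60, 13.41 and 13.57 in sham (-0.390 ± 0.10, adjusted p = 0.0157). The isoforms of complex IV best known from heart and skeletal muscle did not pass, at -0.551 ± 0.21 for Cox6a2 (adjusted p = 0.0736) and -0.321 ± 0.20 for Cox7a1 (adjusted p = 0.273). The common isoforms did not pass either: Cox4i1 0.137 ± 0.076 (adjusted p = 0.219), Cox6a1 -0.231 ± 0.13 (adjusted p = 0.238), Cox7a2 0.184 ± 0.18 (adjusted p = 0.513) and Cox8a -0.069 ± 0.15 (adjusted p = 0.778). Under the same choice, without striatum 2 h replicate 4, Cox6a2 (adjusted p = 0.0222) and Cox7c (-0.243 ± 0.074, adjusted p = 0.0321) passed.

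ATP synthase genes fell in 4 of 14 cases and rose in 1, against 8.23% of all genes lower and 9.28% higher. Atp5j, coupling factor 6 of the peripheral stalk, measured 12.57, 12.56, 12.71 and 12.58 at 24 h, against 13.14, 12.90, 13.18 and 13.19 in sham. The groups did not overlap, the log2 ratio was -0.497 ± 0.098 (adjusted p = 0.00404), and the signal fell by 29.2% on the linear scale. It passed under all 19 alternatives run for it. Its second, dimmer probe did not pass (-0.137 ± 0.12, adjusted p = 0.467). The other falls were Atp5g2, which codes for the proton-carrying c subunit (-0.355 ± 0.11, adjusted p = 0.0388), Atp5h of the peripheral stalk (-0.326 ± 0.11, adjusted p = 0.0445) and Atp5d of the central stalk (-0.297 ± 0.099, adjusted p = 0.0462). Of 19 alternatives each, Atp5g2 did not pass in 10, Atp5h in 12 and Atp5d in 9. Atp5a1, the alpha subunit of the catalytic head, rose: 10.63, 10.13, 10.71 and 10.36 at 24 h, against 9.36, 9.80, 9.57 and 10.24 in sham. One sham array exceeded the lowest 24 h array, and the ratio was 0.714 ± 0.20 (adjusted p = 0.0202). Atp5b, the beta subunit of the same head, had 14.16 ± 0.089 at 24 h and 14.17 ± 0.082 in sham (SD, n = 4 each), a ratio of -0.015 ± 0.083 (adjusted p = 0.918). Atp5g1 and Atp5g3, the other genes of the c subunit, had -0.064 ± 0.12 (adjusted p = 0.757) and 0.156 ± 0.10 (adjusted p = 0.307).

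Proximal promoters are shown for the genes whose 24 h change differed between the tissues, below, and for Sdhb, whose 2 probes both rose. Sequences are from RefSeq on build GRCm38.p6, 250 bases before to 50 after the annotated start, 5′ to 3′ on the gene's strand. They were searched on both strands for the letters GCGCA and GCGC with any base between them (nuclear respiratory factor NRF1), ACCGGAAG (the ETS family, to which GABP belongs), TCAAGGTCA (oestrogen-related receptors), AAGATGGCG (YY1), GGGGCGGGG (SP1) and CCAAT, and matches are in capitals. Ndufs7 at chr10:80249199-80249498 on the plus strand holds AAGATGGCG and Ndufs8 at chr19:3912725-3913024 on the minus strand holds 3 CCAAT matches and 1 match to the ETS letters. Atp5j at chr16:84834927-84835226 on the minus strand holds AAGATGGCG, and this window overlaps that of Gabpa, a GABP subunit gene on the plus strand, at chr16:84834874-84835173. A second annotated start of Atp5j has its window at chr16:84835576-84835875, which does not overlap that of Gabpa and holds none of these letters. Sdhb at chr4:140961021-140961320 on the plus strand holds 1 match each to the SP1, CCAAT and ETS letters.
Atp5j: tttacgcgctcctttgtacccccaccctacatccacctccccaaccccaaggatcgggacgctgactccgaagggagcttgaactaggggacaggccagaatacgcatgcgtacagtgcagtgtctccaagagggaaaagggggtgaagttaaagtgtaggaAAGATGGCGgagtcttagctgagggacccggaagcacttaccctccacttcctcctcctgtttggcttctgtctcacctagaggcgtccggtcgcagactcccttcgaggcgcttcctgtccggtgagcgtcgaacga
Ndufs7: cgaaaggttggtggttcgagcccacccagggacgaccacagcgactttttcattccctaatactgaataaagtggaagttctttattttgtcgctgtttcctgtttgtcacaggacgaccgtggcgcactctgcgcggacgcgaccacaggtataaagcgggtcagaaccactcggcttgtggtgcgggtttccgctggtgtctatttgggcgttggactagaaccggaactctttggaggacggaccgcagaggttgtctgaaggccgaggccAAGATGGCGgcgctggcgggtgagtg
Ndufs8: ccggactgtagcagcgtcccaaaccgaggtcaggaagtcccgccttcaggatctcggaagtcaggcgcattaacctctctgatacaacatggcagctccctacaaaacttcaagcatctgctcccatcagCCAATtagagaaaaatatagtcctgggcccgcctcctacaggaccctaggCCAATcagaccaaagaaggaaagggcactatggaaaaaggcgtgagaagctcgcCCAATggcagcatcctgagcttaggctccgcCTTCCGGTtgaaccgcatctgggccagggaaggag
Sdhb: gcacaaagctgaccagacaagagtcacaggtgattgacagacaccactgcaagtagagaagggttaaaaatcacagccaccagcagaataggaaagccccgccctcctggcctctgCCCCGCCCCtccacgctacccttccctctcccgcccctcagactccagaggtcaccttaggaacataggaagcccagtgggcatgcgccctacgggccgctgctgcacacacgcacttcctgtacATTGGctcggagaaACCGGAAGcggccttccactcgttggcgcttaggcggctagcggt

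The promoter table matched 60 of the 73 genes, with 65 windows. The NRF1 letters were in 15 of these windows (23.1%), against 4.6% of all 32851 windows of that length, and the YY1 and ETS letters in 7 each (10.8%), against 1.4% and 2.3%. The SP1 letters were in 16.9% of the windows, against 11.45%, CCAAT in 38.5%, against 37.4%, and the oestrogen-related receptor letters in 2 windows (3.08%), against 0.42%. Of 12 windows of the genes that fell in striatum at 24 h, 4 held the NRF1 letters and 3 the YY1 letters. CCAAT was in 2 of the 12, the ETS and SP1 letters in 1 each, and the oestrogen-related receptor letters in 0. Each annotated start of Atp5j counts as a window. Letters of the hypoxia response element were in 26.2% (ACGTG) and 53.8% (GCGTG) of the 65 windows, against 19.6% and 32.4% of all windows. Among the 12 windows, ACGTG was in 2 and GCGTG in 7. These are matches of letters, and binding was not measured.

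Of the 67 genes tested in cortex, 2 passed at 24 h, 1 higher (6.89% of all genes) and 1 lower (7.15% of all genes), against 14.0% of all 9679 genes called in either direction. The median ratio was 0.034, against -0.032 over all genes, and it was -0.050 with median scaling. The 95% confidence interval of 63 of the 67 ratios lay within a 1.5-fold change in either direction, against 44 of 67 in striatum at 24 h, where the median standard error was larger (0.128, against 0.078). Ndufa2, an accessory subunit of complex I, measured 11.96, 12.07, 12.01 and 12.03 at 24 h, against 11.73, 11.60, 11.63 and 11.87 in sham. All 24 h arrays lay above the sham arrays (0.309 ± 0.069, adjusted p = 0.00887). Ndufa4 measured 13.38, 13.54, 13.44 and 13.21 at 24 h, against 13.57, 13.59, 13.73 and 13.54 in sham, where 1 array of each group reached 13.54 (-0.214 ± 0.066, adjusted p = 0.0391). The count was 1 without cortex sham replicate 1 or 2 or 24 h replicate 1 or 4, 4 without 24 h replicate 2, and 6 with slide as a block. In the same arrays 7 of 7 tested macrophage markers rose (10 listed), with summed log2 levels of 10.92 to 13.74 in I/R and 10.21 to 10.54 in sham. Of 7 tested markers of striatal projection neurons (8 listed) 4 fell in these cortex arrays, Drd1, Drd2, Pde10a and Rgs9, with sums of 11.39 to 12.53 in I/R and 12.58 to 12.95 in sham, and of 7 neuronal markers 1 fell, Syt1 (-0.293 ± 0.096, adjusted p = 0.0491). The part of these markers in the results was not tested.

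At the earlier times few genes passed. In the cortex at 2 h 0 of 67 genes passed limma's test, against 1.16% of all genes called at an adjusted p under 0.05. At an unadjusted p under 0.05 there were 5 of the 67, with no like share of all genes given. The smallest p was for Cox6c, a complex IV subunit, at 12.89, 12.69, 12.65 and 12.68 at 2 h, against 12.01, 12.20, 12.61 and 12.32 in sham (0.438 ± 0.11, adjusted p = 0.0697). Every 2 h array lay above every sham array. At 8 h 1 of 67 passed, against 7.09% of all genes: Ndufa2, at 11.911, 12.002, 11.936 and 12.088 at 8 h, above the 4 sham values given above (0.277 ± 0.069, adjusted p = 0.0236). Ndufa2 at 2 h had 0.239 ± 0.069 (adjusted p = 0.0919), so its cortex ratios at 2, 8 and 24 h were of like size, while all 3 share the same sham arrays. The 8 h count was 0 without cortex sham replicate 1 or 2 or 8 h replicate 2, and 3 without 8 h replicate 4.

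In the striatum 0 of 67 genes passed at 2 h, against 0.180% of all genes called at an adjusted p under 0.05. At 8 h 0 passed, against 3.52% of all genes called. At an unadjusted p under 0.05 there were 6 of the 67 at 2 h and 7 at 8 h, with no like share of all genes given. The smallest p at 2 h was that of Cox4i1, the common isoform of complex IV subunit 4, at 13.52, 13.59, 13.58 and 13.64 at 2 h, against 13.32, 13.38, 13.25 and 13.40 in sham (0.240 ± 0.076, adjusted p = 0.243). At 8 h it was that of Atp5j (-0.276 ± 0.098, adjusted p = 0.122), which measured 12.66, 12.84, 12.87 and 12.94. The means of Atp5j in striatum were 13.10 (sham), 12.89 (2 h), 12.83 (8 h) and 12.61 (24 h).

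Successive times were also compared within each tissue. From 2 h to 8 h 0 of 67 genes passed in cortex, against 0.672% of all genes called, and 0 in striatum, against 0.901%. At an unadjusted p under 0.05 there were 2 of the 67 in cortex and 4 in striatum, with no like share of all genes given. The smallest p-values were those of Cox6a1 in cortex (0.141 ± 0.061, adjusted p = 0.312) and Cox4i1 in striatum (-0.190 ± 0.076, adjusted p = 0.247). Between 24 h and 8 h 1 of 67 rose in cortex (3.22% of all genes rose), against 6.64% of all genes called. It was Atp5g1, at 12.32, 12.19, 12.17 and 12.27 at 24 h, against 11.95, 11.93, 12.01 and 11.97 at 8 h, with no overlap (0.270 ± 0.057, adjusted p = 0.01). Without cortex 24 h replicate 4 the count was 3. In striatum 4 of 67 were lower at 24 h than at 8 h (7.33% of all genes were lower), against 13.5% of all genes called: Ndufs8 (-0.366 ± 0.097, adjusted p = 0.0218), Atp5d (-0.360 ± 0.099, adjusted p = 0.0251), Atp5h (-0.354 ± 0.11, adjusted p = 0.0372) and Uqcrc1. Uqcrc1 measured 10.91, 11.06, 11.14 and 11.28 at 24 h, against 11.27, 11.46, 11.53 and 11.50 at 8 h (-0.346 ± 0.097, adjusted p = 0.0268). The count was 7 without striatum 2 h replicate 4, a choice that favours such calls. It was 2 without 8 h replicate 3 (both then higher at 24 h), 1 without 24 h replicate 2, and 0 without 8 h replicate 4 or 24 h replicate 1.

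The difference between the responses of the tissues was tested in 1 fit of all 32 arrays. At 24 h 3 of 67 genes differed, all with a lower log2 ratio in striatum than in cortex (0.961% of all genes), against 1.73% of all 10201 genes called. Atp5j had -0.497 ± 0.098 in striatum and 0.086 ± 0.088 in cortex, where its arrays measured 12.80, 13.08, 12.91 and 12.72 at 24 h, against 12.79, 12.86, 12.78 and 12.73 in sham. The difference was -0.583 ± 0.13 (adjusted p = 0.0256). Ndufs7 had -0.291 ± 0.090 in striatum and 0.200 ± 0.079 in cortex (difference -0.491 ± 0.12, adjusted p = 0.0344), and Ndufs8 had -0.469 ± 0.097 and -0.023 ± 0.060 (difference -0.447 ± 0.11, adjusted p = 0.04). In cortex Ndufs8 measured 11.37, 11.43, 11.56 and 11.49 at 24 h, against 11.45, 11.48, 11.58 and 11.44 in sham, so those groups overlapped. Atp5j and Ndufs7 were also called higher in sham striatum than in sham cortex, and the same sham arrays enter both comparisons. Without striatum 2 h replicate 4, a choice that favours such calls, the count was 7, all negative, with Atp5g2, Ndufa5, Ndufc1 and Cox5b added. It was 0 without cortex sham replicate 1 or striatum sham replicate 1, 3 or 4, 1 without cortex 24 h replicate 3 or striatum 24 h replicate 1, and 6 without striatum sham replicate 2. For the genes that rose in striatum the differences did not pass: Sdhb 0.227 (95% confidence interval -0.086 to 0.539), Ndufb5 0.318 (-0.192 to 0.828) and Atp5a1 0.190 (-0.416 to 0.795).

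**Figure D4:**
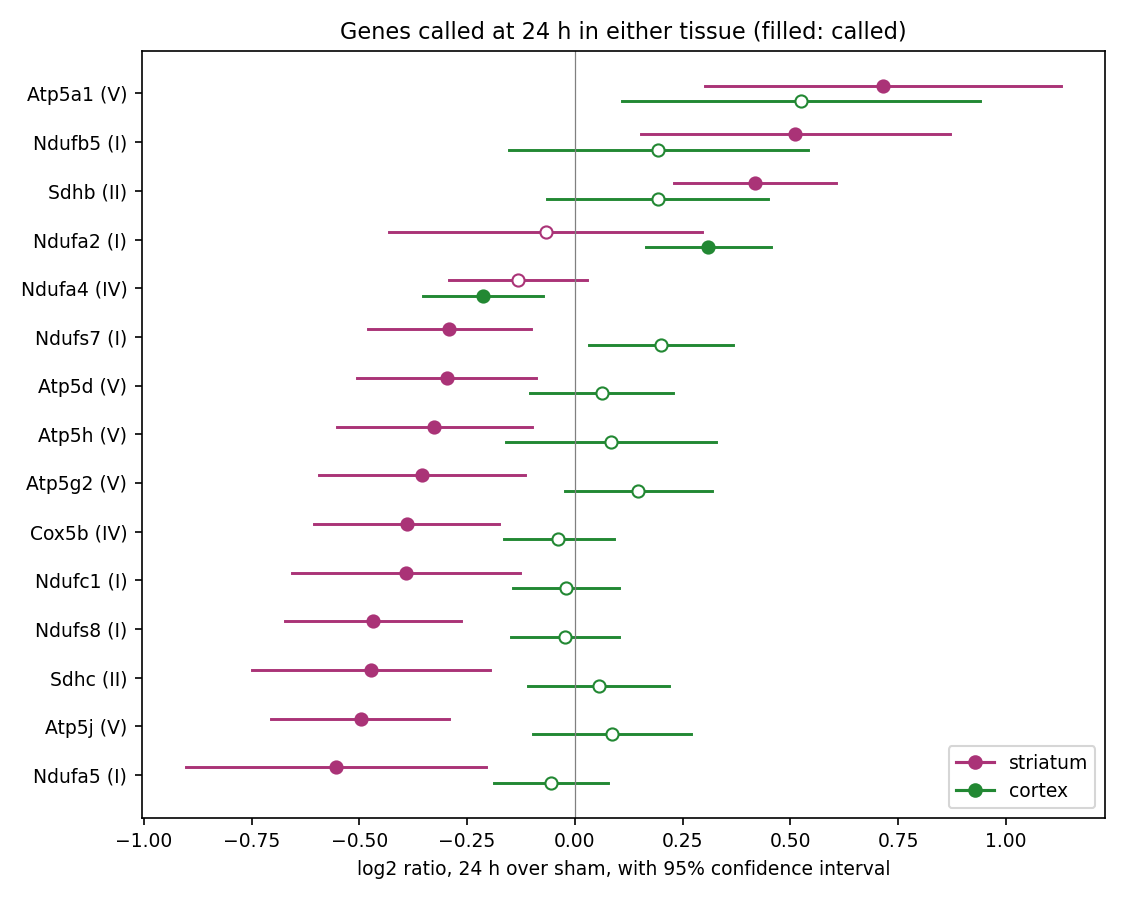
Log2 ratio of 24 h over sham with its 95% confidence interval, striatum above cortex, for the 15 genes called in either tissue; filled points passed an adjusted p of 0.05 in their own tissue. For Atp5j, Ndufs7 and Ndufs8 the striatum interval lies below that of cortex, and the difference passed the test for these 3. Intervals of other genes, such as Sdhc and Atp5g2, are also apart, but their differences did not pass (Atp5g2 adjusted p = 0.0516).

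At 2 h 0 of 67 genes differed in response between the tissues at an adjusted p under 0.05, against 0% of all genes. Cox6c had the smallest p (-0.723 ± 0.20, adjusted p = 0.785). At 8 h 0 differed, against 0.0196% of all genes, and Ndufs7 had the smallest p (-0.310 ± 0.12, adjusted p = 0.971). At an unadjusted p under 0.05 there were 7 of the 67 at 2 h and 3 at 8 h, with no like share of all genes given.

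Sham striatum and sham cortex differed in 11 of 67 genes, 10 higher in striatum (13.8% of all genes) and 1 lower (12.8% of all genes), against 26.6% of all genes called. The median difference was 0.094, against 0.001 over all genes. Cox6c measured 12.889, 12.999, 12.614 and 12.831 in sham striatum, against 12.012, 12.202, 12.614 and 12.324 in sham cortex (0.545 ± 0.14, adjusted p = 0.00456), and the groups met at 12.614. Cox7a1, an isoform known from muscle, measured 7.933, 7.601, 7.525 and 7.906 in sham striatum, against 7.350, 7.206, 7.204 and 7.165 in sham cortex (0.510 ± 0.17, adjusted p = 0.0281). Ndufv2, a core subunit of the NADH-binding part of complex I, had 12.64 ± 0.12 in striatum and 12.31 ± 0.065 in cortex (SD, n = 4 each; 0.334 ± 0.066, adjusted p = 0.000335), and Atp5j had 13.10 ± 0.14 and 12.79 ± 0.056 (0.314 ± 0.094, adjusted p = 0.0123). Cox7a2l, which is no subunit, was also higher (0.247 ± 0.080, adjusted p = 0.0214), and Atp5d was the only one lower (-0.294 ± 0.088, adjusted p = 0.0125). With quantile normalization within each tissue the median of all genes moved to 0.126, and 23 genes were higher and 0 lower, Atp5d among those that no longer passed. Median scaling left 2 of the 67, both higher. All 7 tested oligodendrocyte markers were higher in striatum (8 listed), with summed log2 levels of 15.65 to 15.80 there and 15.09 to 15.26 in cortex. Of 8 tested neuronal markers (10 listed) 4 were lower in striatum, Rbfox3 (-0.886), Syt1 (-0.478), Thy1 (-0.335) and Syp (-0.328), and of 8 astrocyte markers 3 were higher, Aqp4 (0.947), Gja1 (0.513) and Aldoc (0.282), and 1 lower, Slc1a2 (-0.361). Their part in the results was not tested. Without cortex sham replicate 1 or 2 the count was 7.

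**Figure D5:**
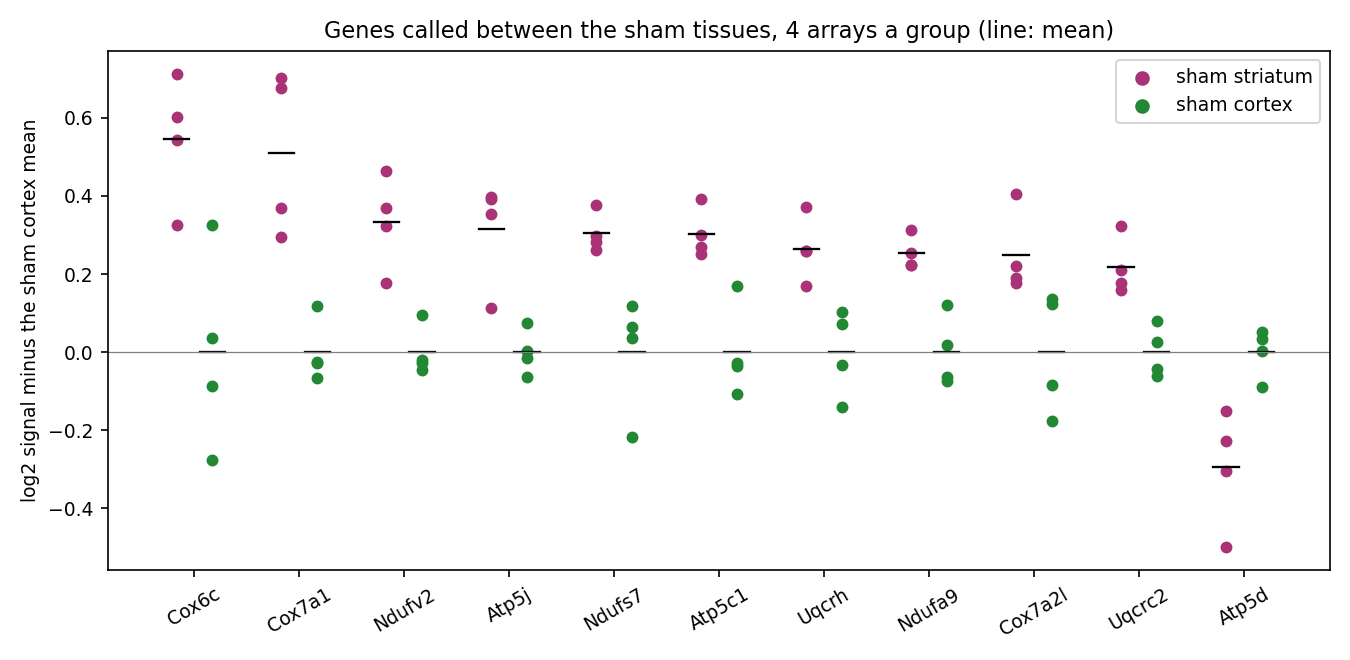
Log2 signal minus the mean of sham cortex on each of 4 arrays of sham striatum and sham cortex, for the 11 genes called between them; lines are means. In 10 genes the striatum mean lies above that of cortex, and in Atp5d below it.

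Several genes have more than 1 probe. Ndufs4, an accessory complex I subunit, has 4 tested probes, and at 24 h in striatum its brightest gave -0.022 ± 0.087 (adjusted p = 0.887) while its dimmest gave 0.529 ± 0.18 (adjusted p = 0.0472). The second probe of Atp5j rose in cortex at 24 h (0.370 ± 0.11, adjusted p = 0.0379), where its brightest did not pass. Ndufa5 was the other gene with probes of opposite sign of which 1 passed. Of the genes of no complex, Ndufaf1 had 0.197 ± 0.087 (adjusted p = 0.123) and Dmac2l -0.190 ± 0.13 (adjusted p = 0.313) at 24 h in striatum, and neither passed.

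Other mitochondrial genes were followed in lists, and no list was tested as a set. Of all genes 9.28% rose and 8.23% fell in striatum at 24 h, and 6.89% rose and 7.15% fell in cortex. Of 6 other genes of the chain, 2 rose in striatum at 24 h and 0 fell: Cycs, which codes for cytochrome c (0.993 ± 0.24, adjusted p = 0.0103), and Higd1a, a hypoxia-induced protein of the inner membrane (0.985 ± 0.21, adjusted p = 0.00588). None of the 6 was called in cortex at 24 h. Of 14 regulators of mitochondrial biogenesis 0 rose and 1 fell in striatum, Ppargc1b, a coactivator of the PGC-1 family (-1.164 ± 0.20, adjusted p = 0.00264), and 0 rose and 2 fell in cortex, Ppargc1b (-0.592 ± 0.17, adjusted p = 0.0279) and Ppargc1a (-0.372 ± 0.10, adjusted p = 0.0221). Gabpa, whose promoter window overlaps that of Atp5j, had 0.034 ± 0.18 in striatum (adjusted p = 0.913). Of 23 genes of complex assembly, with 24 array entries because Cox18 has 2, 2 entries rose and 1 fell in each tissue. In striatum 1 entry of Cox18 rose (0.462 ± 0.11, adjusted p = 0.00817), while the other had the opposite sign and did not pass (-0.104 ± 0.11, adjusted p = 0.551). The others in striatum were Uqcc1, higher (0.318 ± 0.11, adjusted p = 0.048) and, lower, Cox19 (-0.367 ± 0.081, adjusted p = 0.00732). In cortex 1 entry of Cox18 rose (0.310 ± 0.10, adjusted p = 0.0469) and the other did not pass (0.150 ± 0.099, adjusted p = 0.325), Sdhaf1 rose (0.309 ± 0.079, adjusted p = 0.0157), and Ttc19, a complex III assembly factor, fell (-0.422 ± 0.079, adjusted p = 0.00338).

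Of 16 genes of the citric acid cycle and pyruvate dehydrogenase, 0 rose and 1 fell in striatum, Idh3b (-0.286 ± 0.072, adjusted p = 0.013). Idh3b also fell in cortex (-0.234 ± 0.065, adjusted p = 0.0251), where Suclg2 rose (0.390 ± 0.12, adjusted p = 0.0346). Of 11 genes of exchange across the mitochondrial membranes 1 rose in each tissue, Tspo, an outer membrane protein also used as a marker of activated microglia (0.896 ± 0.26, adjusted p = 0.024 in striatum and 1.675 ± 0.23, adjusted p = 0.00055 in cortex). Of 14 import genes Tomm70a rose in striatum (0.713 ± 0.16, adjusted p = 0.00813), and of 9 genes of coenzyme Q synthesis (10 entries, with 2 for Coq10b) Coq2 rose there (0.492 ± 0.11, adjusted p = 0.00716). In cortex 0 of 13 import genes and 0 of 9 coenzyme Q genes were called. Of 69 mitochondrial ribosomal protein genes 3 rose and 3 fell in striatum, with a median of -0.001, and 4 rose and 1 fell in cortex, with a median of 0.040. These counts too stand beside 9.28% of all genes higher and 8.23% lower in striatum at 24 h, and 6.89% and 7.15% in cortex.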

How the data were processed

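The deposited intensity values are un-normalized mean signals per probe from BeadStudio 3.3.7, per the file headers, and the deposited cortex table holds the mean of a gene's probes. The detection fractions in the deposited tissue tables are 1 minus the detection p. The series matrix holds the authors' ratio of each signal to the mean of the tissue's 4 sham arrays, as found from its values. Replicates are named by the titles; 0 of 32 arrays carry the same number in the descriptions, and 32 of 32 the same group. In all, 8 columns that match no sample and 837 probes with no value were left out.

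Signals were background-corrected (limma 3.58.1 in R 4.3.3, normal-exponential from detection p, offset 16), quantile-normalized over 32 arrays and taken to log2. Probes had to be detected (p under 0.05) on all 4 arrays of 1 group of the fit, and the brightest probe stood for a gene. Groups of a tissue were fitted together (lmFit, eBayes with trend), and tissue comparisons and response differences came from all 32 arrays. P-values are 2-sided and were adjusted by Benjamini-Hochberg over all genes of each of 14 comparisons, at 0.05. The fit was tested on simulated data. In striatum at 24 h it recovered 5.08% of 1.25-fold, 37.3% of 1.5-fold and 83.3% of 2-fold changes. In cortex at 24 h the shares were 13.6%, 62.1% and 88.2%. A change of 1.25-fold or 1.5-fold was thus often missed in that simulation, which held 9984 genes for striatum and 9679 for cortex. No recovery is given for the 67 genes alone. At 24 h their median standard error was smaller than that of all genes, 0.128 against 0.149 in striatum and 0.078 against 0.132 in cortex. Members, gene lists and the rule for named genes (a fixed panel, the largest called changes per complex or comparison, genes with probes of opposite sign and genes of no complex) were chosen with earlier results of these data known. Alternatives are listed in the closing section.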

Additional observations from a re-analysis of the deposited data

Results flagged for a closer look

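Each gene named by a fixed rule was checked in every group of 4 arrays for an array apart from the other 3, by Dixon's ratio at its 95% critical value. Of 256 such groups 24 passed it, where chance passes about 5%. Values are log2 signals, with the nearest other array of the group beside each.

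In striatum the array of 2 h replicate 4 was low for 4 genes: Ndufa2 11.011 (nearest 11.996), Cox7a1 6.81 (nearest 7.774), Atp5j 12.614 (nearest 12.948) and Ndufs4 11.477 (nearest 11.742). The 8 h array replicate 3 was high for Cox6c at 13.319 (nearest 12.786) and Cox5a at 12.948 (nearest 12.558), and 8 h replicate 4 for Cox7a2l at 11.6 (nearest 11.465). At 24 h replicate 3 was high for Atp5j at 12.711 (nearest 12.582) and low for Sdhb at 10.744 (nearest 10.878). In sham, replicate 2 was low for Atp5j at 12.903 (nearest 13.142). Each of the Atp5j and Sdhb values at 24 h lay nearer to the sham arrays than the rest of its group, and both genes were called with these arrays included.

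In cortex at 2 h replicate 1 was high for Atp5a1 at 10.254 (nearest 9.63), Cox6c at 12.889 (nearest 12.685) and Sdhb at 10.796 (nearest 10.376). Replicate 4 of that group was high for Ndufa2 at 12.068 (nearest 11.907) and low for Ndufaf1 at 9.611 (nearest 9.727), and replicate 2 was low for Atp5j at 12.816 (nearest 12.907). At 8 h replicate 3 was high for Atp5d at 11.41 (nearest 11.232), replicate 2 for Ndufv2 at 12.469 (nearest 12.375), and replicate 4 was low for Cox7a1 at 6.907 (nearest 7.356). At 24 h replicate 1 was low for Sdhb at 10.258 (nearest 10.706) and Cox7a2l at 11.095 (nearest 11.319), and replicate 3 was low for Atp5a1 at 9.807 (nearest 10.012). In sham replicate 4 was low for Atp5h at 10.848 (nearest 11.308) and replicate 1 high for Cox5b at 13.609 (nearest 13.462).

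The 24 h response differed between the tissues, by the interaction term of the fit, for Atp5j (striatum minus cortex -0.583, adjusted p = 0.0256), Ndufs7 (-0.491, adjusted p = 0.0344) and Ndufs8 (-0.447, adjusted p = 0.04). None of the 3 was called in cortex at 24 h.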

How the results depend on the processing

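No difference called for a named gene changed sign under any alternative run for it, but the counts of genes called moved. The counts here and in the next paragraph are of respiratory chain genes. No share of all genes is given for any alternative, so whether the whole array moved alike is not shown. Median scaling gave 0 in cortex at 8 h, 1 in cortex at 24 h, 3 in striatum at 24 h, 0 for 24 h against 8 h in both cortex and striatum, 2 between sham tissues and 0 for the 24 h response difference. Series matrix ratios gave 0 in cortex at 8 h, 1 in cortex at 24 h, 1 in striatum at 24 h (Atp5j), and 0 for 24 h against 8 h in each tissue and for the 24 h response difference. With no detection filter, which tests more genes, the counts were 1 in cortex and 6 in striatum at 24 h, and 0 for the 24 h response difference. The mean of detected probes gave 2 in cortex at 8 h, and the deposited tissue tables gave 3 in cortex at 8 h and 2 for 24 h against 8 h in cortex. Quantile normalization within each tissue gave 23 between sham tissues. Slide as a block gave 6 in cortex at 24 h and 1 in striatum at 8 h. Replicate numbers go with slide: the I/R arrays of a number share 1 slide for 4 of 4 numbers in each tissue, and the sham array is on it for 1 of 4 in striatum and 2 of 4 in cortex. The deviations of same-numbered arrays correlated above 0.1 in some pairs but not in every pair of any comparison, so the numbers were not taken as pairs. The replicate block gave 4 in cortex at 24 h, 13 in striatum at 24 h, and 3 between sham tissues, against 11 without it. The cause of these shifts was not tested.

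Leaving out 1 array of the groups compared gave counts of 0 to 1 in cortex at 2 h, 0 to 3 in cortex at 8 h, 1 to 4 in cortex at 24 h and 4 to 11 in striatum at 24 h. For 24 h against 8 h it gave 1 to 3 in cortex and 0 to 4 in striatum, between sham tissues 7 to 12, and for the 24 h response difference 0 to 6. Leaving out striatum 2 h replicate 4, chosen after seeing these genes low on it, gave 19 in striatum at 24 h, 7 for 24 h against 8 h in striatum and 7 for the 24 h response difference. The ratios of these comparisons were unchanged by it. Counts stayed at 0 under every alternative for 2 h in striatum, 8 h against 2 h in both tissues, and the 2 h and 8 h response differences. A background offset of 50 and no background correction moved no count by over 1.5 times. Of the genes called in striatum at 24 h, Atp5j passed in all 19 settings, Ndufs8 in all but the series matrix ratios, and Cox5b and Sdhb in all but those and median scaling. Of the same 19, Sdhc did not pass in 3, Atp5a1 in 6, Ndufa5 in 8, and Atp5d, Ndufb5 and Ndufs7 in 9 each. Atp5g2 did not pass in 10, Atp5h in 12 and Ndufc1 in 13.

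Precision rests on 4 arrays a group, and dim probes such as those of Cox7a1 lie nearest to background. Slide position and group cannot be told apart.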
